A study of Mus musculus with 15 samples.

Results

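The lung's gas-exchange surface is defined by a small group of genes, and 10 of them were followed here among the 55359 genes of the deposited matrix. The genes were Sftpa1, Sftpb, Sftpc, Sftpd, Abca3, Lamp3, Napsa, Slc34a2, Ager and Hopx, each taken as the row that carries its symbol. Alveolar type II cells make pulmonary surfactant, the lipid and protein film that keeps air sacs from collapsing, and store it in lysosome-related organelles called lamellar bodies. Alveolar type I cells are the flat cells across which gas passes, and they can be renewed from type II cells. Sftpa1 and Sftpd encode the surfactant collectins, which bind microbes. Sftpb and Sftpc encode the hydrophobic surfactant proteins, which spread the lipid film. Abca3 encodes the lipid transporter of the lamellar body and Lamp3 a glycoprotein of its membrane, Napsa an aspartic protease that takes part in processing the surfactant protein B precursor, and Slc34a2 the phosphate transporter of the apical surface. Ager, the receptor for advanced glycation end products, and Hopx, an atypical homeodomain protein, mark type I cells.

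RNA was sequenced in 5 groups of 3 samples. 46LCNEC_cell was the 46LCNEC cell line, grown as an adherent layer in dishes A, B and C and derived from a large cell neuroendocrine carcinoma that arose after adenoviral Cre driven by the ubiquitous CMV promoter (Ad-CMVcre) was given into the airways of QKO mice. 57SCLC_cell was the 57SCLC cell line, grown as floating aggregates in flasks A, B and C and derived from a small cell carcinoma that arose after Cre driven by the keratin K5 promoter (Ad-K5cre). The alleles of QKO mice include floxed Rb1 and Trp53 and a null Rbl1 gene, and both lines came from tumors of that genotype. 46LCNEC_allo (tumors 312, 319 and 321) and 57SCLC_allo (tumors 275, 316 and 317) were allografts of these lines under the skin of syngeneic, immunocompetent QKO mice, and Lung (CT3, CT4 and CT5) was whole normal lung of littermates of the recipients, with genotype and age not given in the sources used here. Each tumor type was represented by a single line, the cultures were separate vessels of that line, and Rb1 and Trp53 remain floxed but not recombined in the host cells of an allograft. P-values between cultures therefore measure the spread between vessels.

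Sequencing depth, as reads assigned to genes, had a median of 26502525 per sample and extremes of 9480244 (tumor 275) and 44876572 (flask C of 57SCLC_cell). Between replicates, 0.707% (flasks A and B of 57SCLC_cell) to 20.2% (tumors 319 and 321) of the genes with at least 10 normalized counts were 2-fold or more apart, and no pair of replicates was as close as counting error alone would make it. Flask C stood apart from its sister flasks, from which 6.39% and 6.18% of genes were that far away. Rb1, Trp53 and Rbl1 were still counted in all groups, with Rb1 between 66.6 and 777 normalized counts, which checks little since a gene count also covers exons outside the deleted parts. Neuroendocrine markers, a list of 7 genes, summed to 90683 to 100896 normalized counts in 57SCLC_cell and 50729 to 61824 in 57SCLC_allo, against 265 to 277 in Lung, 735 to 838 in 46LCNEC_cell and 63.6 to 170 in 46LCNEC_allo. The higher sum of 46LCNEC_cell came from Uchl1, a neuronal deubiquitinase, which was called higher than Lung (log2 fold change 2.66, adjusted p = 1.11e-07). Insm1 and Calca were called lower, from only 21.1 to 26.2 and 14.2 to 28.9 normalized counts in Lung. Both had enough counts for a test only through Lung, so these calls are no support. Of the markers tested, 1 of 5 was called higher and 4 lower in 46LCNEC_cell, where 20.6% and 35.0% of all genes tested were. In 46LCNEC_allo none of 6 was called higher and 3 lower, against 13.4% and 22.1%. With Lung this low, calls of lower say little about the neuroendocrine label of these samples. Only Uchl1 in the cells was called higher. The epithelial genes Cdh1 and Epcam were at 1.44% and 1.13% of the Lung mean in 46LCNEC_cell and at 179% and 711% in 57SCLC_cell, where Cdh1 was not called. The list of 10 epithelial genes they come from was less uniform. It summed to 6709 to 7738 in 46LCNEC_cell and 65389 to 75688 in 57SCLC_cell, against 28396 to 35757 in Lung. In 46LCNEC_cell 9 of the 10 were called lower (35.0% of all genes tested). In 57SCLC_cell 6 were called higher and 2 lower (21.1% and 32.7%).

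In Lung, 9 of the genes had at least 5442 normalized counts in every sample, while Napsa had 77.7, 48.9 and 73.7 in CT3, CT4 and CT5 (mean 66.8 ± 15.6, SD, n = 3). The alignment did not split reads over introns, and 3 of the 9 exons of Napsa have 150 bases or more, as do 3 of the 11 of Ager. How far this lowered the count of Napsa, or the levels per kilobase of any gene, was not tested. Together the 10 genes took 1.11% to 1.41% of all reads counted in a lung, and 0.00185% to 0.0128% in the 12 tumor and cell samples. Per kilobase of annotated exon, Sftpc was highest in Lung, with a mean of 70701 normalized counts per kilobase. Sftpb (25346) and Sftpa1 (23586) followed, and their ranges over the 3 lungs overlapped each other but not those of Sftpc or Ager. Ager (15146), Hopx (12736) and Slc34a2 (10831) came next, with overlapping ranges between neighbors. Lamp3 (4361) and Sftpd (4297) could not be told apart, and Abca3 (607) and Napsa were lowest. CT3 had the lowest value of 8 of the 10 genes and CT5 the highest of 7. In the tumors and cells the order differed. Per kilobase, Abca3 was highest in 57SCLC_cell (138) and 57SCLC_allo (114), followed by Ager (43.3 and 77.8) without overlap. Hopx was highest in 46LCNEC_allo (605), above Abca3 (50.7) and Ager (48.0), whose ranges overlapped. In 46LCNEC_cell Ager (42.1) and Abca3 (36.7) overlapped and lay above Hopx (12.3).

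**Figure D1:**
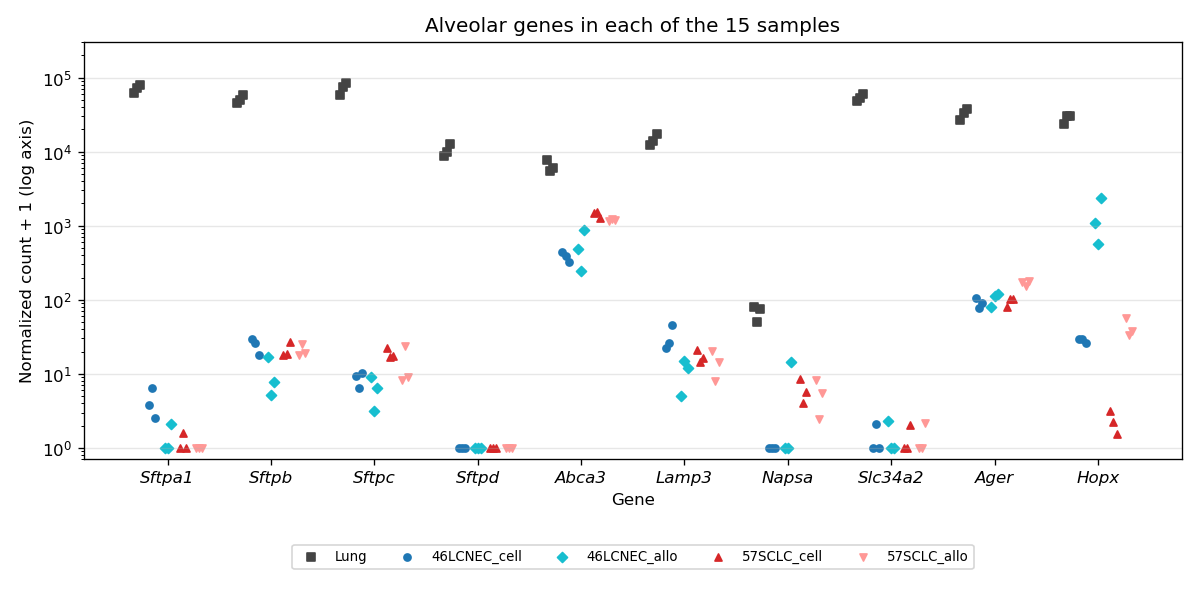
Normalized count + 1 on a log axis for each of the 10 alveolar genes, with 1 point per sample and 3 samples per group. The Lung points lie above those of every tumor and cell sample for each gene, Sftpd is at 0 in all 12 tumor and cell samples, and Hopx in 46LCNEC_allo reaches 558 to 2384.

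Promoters from the RefSeq table were found for 7 of the 10 genes and were matched exactly to GRCm39. The stretches of 150 bases or less printed here, shown for the elements before the start of transcription, belong to the surfactant genes Sftpb and Sftpa1, to Lamp3, and to Abca3 and Hopx, both called between tumor or cell groups. Each run is read 5′ to 3′ on the gene's strand and ends before the first annotated exon. Capitals mark matches on either strand to the core of NKX sites (CTCAAG), to the first FOXA sequence (TGTTTAC), to the second (TGTTTGC), to the GATA sequence (AGATAA) and to the TATA box (TATAAA).
Sftpb, chr6:72281444-72281593, plus strand: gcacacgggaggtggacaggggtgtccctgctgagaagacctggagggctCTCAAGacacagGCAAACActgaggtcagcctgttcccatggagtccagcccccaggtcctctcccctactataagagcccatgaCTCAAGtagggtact
Sftpa1, chr14:40853589-40853738, plus strand: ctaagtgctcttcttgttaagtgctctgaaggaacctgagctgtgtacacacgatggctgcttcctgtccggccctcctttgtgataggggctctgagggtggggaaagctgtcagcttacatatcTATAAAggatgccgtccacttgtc
Lamp3, chr16:19525126-19525275, minus strand: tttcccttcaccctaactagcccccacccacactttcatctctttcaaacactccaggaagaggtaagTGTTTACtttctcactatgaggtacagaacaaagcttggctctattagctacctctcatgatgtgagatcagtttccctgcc
Abca3, chr17:24570747-24570894, plus strand: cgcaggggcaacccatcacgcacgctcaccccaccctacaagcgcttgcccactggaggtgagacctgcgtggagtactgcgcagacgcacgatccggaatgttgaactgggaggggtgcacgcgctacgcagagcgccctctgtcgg
Hopx, chr5:77263023-77263172, minus strand: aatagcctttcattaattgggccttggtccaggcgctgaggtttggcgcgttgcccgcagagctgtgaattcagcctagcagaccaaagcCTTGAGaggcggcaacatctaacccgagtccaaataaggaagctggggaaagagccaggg

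The Sftpb run held CTCAAG at 2 places, from base -100 and from base -15 counted from the RefSeq start, with TGTTTGC on the other strand from base -88 between them. Lamp3 held TGTTTAC from base -92, Hopx CTCAAG on the other strand from base -112, and Sftpa1 a TATA box from base -30 with a further CTCAAG from base -166, outside the run shown. The Hopx run belongs to start 2 of that gene (chr5:77262921-77263220). Its start 1 (chr5:77243065-77243364), not printed, held CTCAAG only after the start, on the other strand from base 36. No match was found in the 300 bases of Abca3, Ager or Slc34a2. Of the 32851 mouse promoters of that length in the table, 15.9% held CTCAAG, 8.48% a FOXA sequence, 11.2% AGATAA and 13.6% TATAAA, so these matches are a description of the letters only.

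The first comparisons asked how far each tumor group lay from normal lung. Lung was whole tissue, and the cells from which the tumors arose were not sampled. Whether those cells had expressed these genes was therefore not measured. The 4 surfactant protein genes were far below Lung in all 4 groups. Sftpd (ENSMUSG00000021795, GRCm39 chr14:40894170-40907128, minus strand) had 8850, 9812 and 12792 normalized counts in Lung and no read in any of the 12 tumor and cell samples. A floor of 3 reads per library makes Lung at least 3730-fold higher than 46LCNEC_cell, 3010-fold than 46LCNEC_allo, 6280-fold than 57SCLC_cell and 2121-fold than 57SCLC_allo. Its exons share 25.7% of their bases with those of Mbl1 on the other strand, which was at 94.9 to 122 normalized counts in Lung and 0 elsewhere. The strand setting of the counting is not stated, so reads of overlapping genes on opposite strands cannot be told apart.

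Sftpa1 (ENSMUSG00000021789, chr14:40853739-40858551, plus strand), its neighbor on chromosome 14, had 61757, 72148 and 78514 normalized counts in Lung. In 46LCNEC_cell it had 2.81, 5.52 and 1.54, a total of 10 reads, and Lung was 21520-fold higher. A single read was counted in 46LCNEC_allo and in 57SCLC_cell, and none in 57SCLC_allo, for which the floor makes Lung at least 14321-fold higher. The ratio to 57SCLC_cell was 383095, with a 95% counting interval of 68758 to 15131500.

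Sftpb (ENSMUSG00000056370, chr6:72281594-72291354, plus strand) had 45744, 49676 and 58329 normalized counts in Lung. It was at 28.1, 25.4 and 16.9 in 46LCNEC_cell, 15.9, 4.21 and 6.64 in 46LCNEC_allo, 16.9, 17.5 and 26.1 in 57SCLC_cell and 16.8, 24.1 and 18.2 in 57SCLC_allo. Unlike Sftpd it was read in each of the 12 libraries, at 0.0174% to 0.0458% of the Lung mean. Sftpc (ENSMUSG00000022097, chr14:70758389-70761524, minus strand) had 58062, 76025 and 85865 in Lung and between 2.11 and 22.6 elsewhere, which is 0.00708% to 0.0241% of the Lung mean.

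The genes of the lamellar body and the apical surface differed widely in how far they lay below Lung. Slc34a2 (ENSMUSG00000029188, chr5:53195423-53229006, plus strand) had 48352, 53634 and 60894 normalized counts in Lung and 5 reads in all 12 other libraries together. Lamp3 (ENSMUSG00000041247, chr16:19472128-19525125, minus strand) had 12317, 13988 and 17597 in Lung and between 3.97 and 44.6 elsewhere. Napsa (ENSMUSG00000002204, chr7:44221804-44236295, plus strand) was at 0 in the 46LCNEC dishes and in tumors 312 and 319, at 13.3 in tumor 321, and between 1.42 and 7.64 in the 57SCLC samples. Since Napsa was low in Lung too, its ratios were small: 15.1-fold for 46LCNEC_allo, 13.1-fold for 57SCLC_cell and 15.3-fold for 57SCLC_allo, and at least 23.8-fold for 46LCNEC_cell. Its exons share 18.8% of their bases with Gm15396 on the other strand, which was at 58.8 to 102 in Lung, at 0 to 0.938 in the 46LCNEC samples and at 136 to 191 in the 57SCLC samples.

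Abca3 (ENSMUSG00000024130, chr17:24570895-24629842, plus strand) was at a larger share of its Lung level than any other member in each of the 4 groups. It had 7662, 5442 and 5968 normalized counts in Lung. It had 447, 387 and 318 in 46LCNEC_cell and 478, 245 and 871 in 46LCNEC_allo, which is 6.04% and 8.36% of the Lung mean. It had 1504, 1549 and 1267 in 57SCLC_cell and 1163, 1232 and 1194 in 57SCLC_allo, which is 22.7% and 18.8%. All 12 values lay below the lowest lung, and the 57SCLC values all lay above the 46LCNEC values. Abca3 alone made up 88.5% to 91.1% of the summed normalized counts of the 10 genes in 57SCLC_cell, against 1.54% to 2.61% in Lung. The lncRNA D330041H03Rik on the other strand shares 10.8% of the exon bases of Abca3 and stayed between 150 and 275 normalized counts in every group.

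Of the type I genes, Ager (ENSMUSG00000015452, chr17:34816827-34819910, plus strand) had 26968, 33362 and 37361 normalized counts in Lung. It was at 106, 77.3 and 88.4 in 46LCNEC_cell, 79.5, 112 and 118 in 46LCNEC_allo, 78.0, 101 and 101 in 57SCLC_cell and 175, 151 and 176 in 57SCLC_allo, or 0.278% to 0.514% of the Lung mean. Hopx (ENSMUSG00000059325, chr5:77234831-77263022, minus strand) had 24069, 30652 and 30103 in Lung. It was at 28.1, 28.7 and 25.4 in 46LCNEC_cell and at 1085, 558 and 2384 in 46LCNEC_allo, or 0.0969% and 4.75% of the Lung mean. In 57SCLC_cell it had 0.521 to 2.18, from 4, 2 and 1 reads in flasks A, B and C, and in 57SCLC_allo 55.1, 32.6 and 36.3. None of the 4 tumor and cell groups overlapped another in Hopx, which was highest in 46LCNEC_allo and lowest in 57SCLC_cell. Hopxos, which shares 38.9% of the exon bases of Hopx on the other strand, was listed at 0 in all samples.

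With limma, all 10 genes were called lower than Lung in each of the 4 groups, where a call needed a 2-fold change or more and a p of 0.01 or less after the Benjamini-Hochberg adjustment. Of all genes tested, 35.0% were called lower in 46LCNEC_cell, 22.1% in 46LCNEC_allo, 32.7% in 57SCLC_cell and 26.9% in 57SCLC_allo. In none of the 10 genes did a tumor or cell group overlap Lung, as for 48.4%, 39.6%, 45.3% and 42.2% of all genes tested, in the same order. The median log2 fold change of the 10 genes was -10.50, -11.53, -11.60 and -10.68, while the medians over all genes tested were -0.23, -0.14, -0.12 and -0.09. Genes entered a test with at least 10 normalized counts in 3 or more samples. Of these calls, 5 in each cell line, 7 in 46LCNEC_allo and 6 in 57SCLC_allo were of genes that reached this through Lung alone and so had to differ. Sftpa1, Sftpd, Slc34a2 and Napsa were among them in every group, while Abca3 and Ager reached it on both sides in all 4 groups. The smallest differences from Lung were those of Abca3. On the log2 scale it was lower by 4.04 (SE 0.15, adjusted p = 1.77e-08) in 46LCNEC_cell and by 3.75 (SE 0.44, adjusted p = 4.46e-04) in 46LCNEC_allo. Abca3 was lower by 2.13 (SE 0.14, adjusted p = 3.45e-06) in 57SCLC_cell and by 2.39 (SE 0.12, adjusted p = 1.26e-06) in 57SCLC_allo. In 46LCNEC_allo the call of Napsa (log2 fold change -4.78, SE 1.05, adjusted p = 0.00742) was lost without any 1 lung and without tumor 312 or 319, where 9 of the 10 genes were called, and held at -6.05 without tumor 321, the tumor with Napsa reads. Without flask C, 10 genes were called lower in 57SCLC_cell. The 4 comparisons share the same 3 lungs. In bulk samples, fewer cells of a type and less RNA per cell cannot be told apart.

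Other genes of the same cells, from lists of 15 type II and 14 type I genes, were lower than Lung in most cases. Of the 15 type II genes, 12 were called lower in 46LCNEC_cell and 13 in each of the other groups, and none was called higher. Of all genes tested, 35.0%, 22.1%, 32.7% and 26.9% were called lower in 46LCNEC_cell, 46LCNEC_allo, 57SCLC_cell and 57SCLC_allo. In that order, 4, 4, 7 and 4 of the 15 were under 10 normalized counts in every sample of the group. Those entered the test through Lung alone and so had to differ. Lpcat1, the enzyme that remodels surfactant phosphatidylcholine, was at 14.3%, 11.2%, 13.8% and 14.3% of the Lung mean in 46LCNEC_cell, 46LCNEC_allo, 57SCLC_cell and 57SCLC_allo, and thus in every group above each member's share except that of Abca3 in 57SCLC samples. Cxcl15, the lung chemokine, was at 10% in 46LCNEC_cell with 2431, 3608 and 2777 normalized counts, at 1.67% in 46LCNEC_allo, and at 0 or a single read in the 57SCLC libraries. Scd1, a fatty acid desaturase, was at 25.3% in 46LCNEC_cell, and Ank3, which encodes a membrane scaffold, at 95.3%. Of the 13 type I genes with any read, 12 were called lower in 46LCNEC_cell, 46LCNEC_allo and 57SCLC_allo and 13 in 57SCLC_cell. Cav1 was listed at 0 in all samples, Lung included. With Cav1 counted in, 5, 4, 5 and 3 of the 14 were under 10 normalized counts in every sample of the groups, in the order above. Those tested among them likewise entered through Lung alone. Emp2 was at 18.9%, 13.8%, 5.85% and 3.15% of the Lung mean, and Clic5 at 0.154% to 1.03%. Igfbp2, a secreted binding protein of insulin-like growth factors, had 16888, 24365 and 20802 normalized counts in 57SCLC_allo, above the 9348 to 12109 of Lung, with a log2 fold change of 0.94 that did not reach 2-fold.

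The next question was whether the lines differed from each other. In culture, 6 of the 10 genes had enough counts to be tested, and 3 were called, where 46.1% of all genes tested were called. Abca3 was higher in 57SCLC_cell than in 46LCNEC_cell by 1.91 on the log2 scale (SE 0.14, adjusted p = 6.00e-06). Sftpc was higher by 1.11 (SE 0.27, adjusted p = 0.00533), from 8.44, 5.52 and 9.23 to 21.3, 15.7 and 16.2 normalized counts, and it entered the test through 57SCLC_cell alone. This call was lost without either of dishes A and B, and without any 1 flask, and 2 of the 6 genes were called without flask C. It was also lost with a pseudocount of 5 (0.84), with no filter (adjusted p = 0.0144), with DESeq2 on the recovered reads (adjusted p = 0.0302), with all 15 samples in 1 model (adjusted p = 0.0343) and in the limma test against 2-fold. Hopx was lower by 3.69 (SE 0.31, adjusted p = 1.23e-05) and entered through 46LCNEC_cell alone. Sftpb (log2 fold change -0.21, SE 0.28), Lamp3 (-0.83, SE 0.32, adjusted p = 0.0423) and Ager (0.04, SE 0.19) were not called. Sftpa1, Sftpd, Napsa and Slc34a2 were too low in both lines to be tested.

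Between the allografts, 5 genes were tested and only Hopx was called, where 30.4% of all genes tested were called. Hopx was lower in 57SCLC_allo than in 46LCNEC_allo by 4.78 on the log2 scale (SE 0.52, adjusted p = 3.61e-04). Abca3 was at 1.35 (SE 0.42, adjusted p = 0.0304), with all 57SCLC_allo values above all 46LCNEC_allo values, and without tumor 321, which had the highest Abca3 of its group, it was called at 1.80 (adjusted p = 0.00283). Sftpb (1.2, SE 0.51, adjusted p = 0.0805) and Ager (0.71, SE 0.24, adjusted p = 0.0432) were also higher in every 57SCLC_allo sample without being called, and 33.6% of all genes tested were higher without overlap. Sftpb entered this test through 57SCLC_allo alone. Lamp3 (0.48, SE 0.57) overlapped between the groups.

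**Figure D2:**
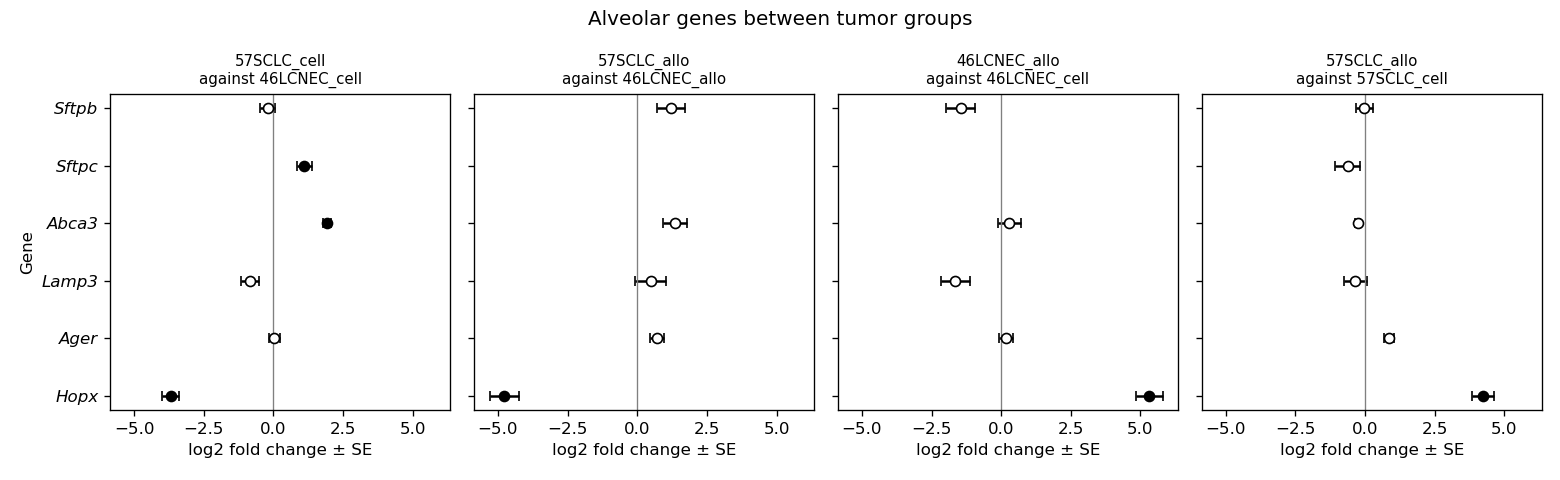
log2 fold change with its standard error for the members tested in each of 4 comparisons, with filled points for called genes (2-fold or more, adjusted p not above 0.01). Hopx is called in all 4 panels, from -4.78 between the allografts to 5.32 between 46LCNEC allografts and cells, and Abca3 and Sftpc are called between the cell lines. Hopx entered through 46LCNEC_cell alone between the cell lines and through 57SCLC_allo alone between 57SCLC allografts and cells. Sftpc entered through 57SCLC_cell alone, and its call was lost under several alternatives.

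A further question was what changed when a line grew as an allograft. Hopx was higher in the allografts of both lines, and no other of the 5 and 6 members tested was called, where 22.8% of all genes tested were called in 46LCNEC and 16.6% in 57SCLC. Against their own cells, 46LCNEC_allo had a log2 fold change of 5.32 (SE 0.48, adjusted p = 1.54e-04), from a mean of 27.4 ± 1.78 to 1342 ± 940 normalized counts (SD, n = 3 each), where 14.4% of all genes tested were called higher. Each tumor lay above each dish, and tumor 321 had the most Hopx and tumor 319 the least. 57SCLC_allo had a log2 fold change of 4.23 (SE 0.40, adjusted p = 6.72e-05), from 1.30 ± 0.835 to 41.3 ± 12.1 normalized counts (SD, n = 3 each), where again 14.4% were called higher. Hopx entered this test through 57SCLC_allo alone, so it had to differ and its p is no support. The value starts from 7 reads in 3 flasks and lay between 2.86 and 5.04 under the alternatives tried.

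The summed markers of leukocytes, endothelium and fibroblasts were higher in the allografts of each line than in its cells, as Hopx was. The summed normalized counts of 8 leukocyte genes went from between 330 and 384 in 46LCNEC_cell to 22021 to 48572 in 46LCNEC_allo, and from between 248 and 276 to 8964 to 14867 in 57SCLC. All 5 of the leukocyte genes tested were called higher in 46LCNEC_allo, and all 6 in 57SCLC_allo, where 14.4% of all genes tested were in each line. In each line 6 of the 8 were under 10 normalized counts in every culture. Most of those tested thus entered through the allografts alone and had to differ. The 6 endothelial genes summed to 371 to 454 in 46LCNEC_cell and 5070 to 8800 in 46LCNEC_allo, and to 70.0 to 95.4 and 2557 to 3658 in 57SCLC. The 7 fibroblast genes summed to 82234 to 92731 in 46LCNEC_cell and 432572 to 854682 in 46LCNEC_allo, and to at most 32.2 in 57SCLC_cell and 40542 to 62734 in 57SCLC_allo. All 7 were called higher in both allografts. In 57SCLC 6 of these 7 were under 10 normalized counts in every flask, so those 6 had to differ there. The 46LCNEC cultures, grown without a host, thus already lay above the 27160 to 32386 of Lung in the fibroblast sum, so a host origin of their rise in that line is not shown. Tumor 321 had the highest Hopx and leukocyte sum of its group and the lowest fibroblast sum. The endothelial sum was highest in tumor 312 (8800, against 7685 in tumor 321). In 57SCLC_allo, tumor 275 had the most Hopx and the highest endothelial sum (3658). The leukocyte and fibroblast sums of that group were highest in tumor 317 (14867 and 62734). Skin genes, a list of 6, summed to 388 to 1393 in 46LCNEC_allo and 118 to 146 in 57SCLC_allo, against 350 to 383 and 152 to 189 in the cells. Fat and muscle genes, also 6, summed to 3.32 to 311 and 28.3 to 57.9 in the allografts. Club and ciliated cell genes, a list of 7, summed to 315 to 621 and 418 to 527 against 214420 to 293299 in Lung. No leukocyte, endothelial or fibroblast gene of these lists was at 0 in every tumor of a line, while 3 of the 6 skin genes were at 0 throughout 46LCNEC_allo and 1 throughout 57SCLC_allo. The part of these cells in the Hopx values was not tested.

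**Figure D3:**
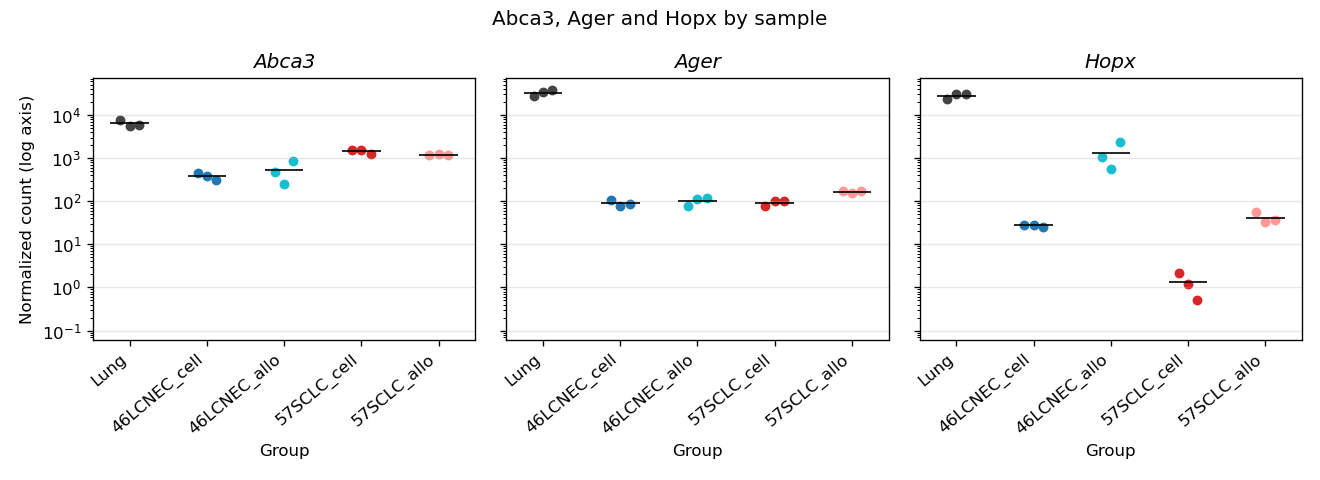
Normalized counts of Abca3, Ager and Hopx on a shared log axis, with 1 point per sample, a line at each group mean and 3 samples per group. Abca3 is at 1163 to 1549 in the 57SCLC groups, Ager is at 77.3 to 118 in 3 of the tumor and cell groups and 151 to 176 in 57SCLC_allo, and Hopx ranges from 0.521 in flask C to 2384 in tumor 321.

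Ager, the other type I gene among the members, was not called between cells and allografts. It was higher in 57SCLC_allo than in 57SCLC_cell by 0.85 on the log2 scale (SE 0.18, adjusted p = 0.00649), short of 2-fold and so not called. In 46LCNEC, Sftpb (-1.45, SE 0.51, adjusted p = 0.0462) and Lamp3 (-1.65, SE 0.52, adjusted p = 0.0314) were lower in every tumor than in every dish, without being called, and 31.5% of all genes tested were lower without overlap. Both entered this test through the cells alone. Clic5, another type I gene, rose in 46LCNEC_allo from between 62.9 and 64.0 to between 368 and 510 normalized counts (log2 fold change 2.70, adjusted p = 5.60e-05). Of the other type I genes tested, 3 of 10 were called higher and 2 lower in 46LCNEC_allo than in its cells, and 3 of 11 higher and 1 lower in 57SCLC_allo. Of the other type II genes tested, 1 of 11 was called higher and 3 lower in 46LCNEC_allo, and 3 of 10 higher and 1 lower in 57SCLC_allo. Of all genes tested, 14.4% were called higher in each line. In either direction 22.8% were called in 46LCNEC and 16.6% in 57SCLC. With 10 or 11 genes tested per list, these counts are a description only. When the allograft change was compared between the lines in 1 model of 12 samples, none of the 6 members tested was called, where 17.5% of all genes tested were. The smallest unadjusted p-values of limma were 0.0363 for Sftpb and 0.0497 for Ager, and neither passed after adjustment (0.105 for Ager). edgeR and DESeq2 on the recovered reads called 0 of the 6. The difference for Hopx was -1.09 (SE 0.66, adjusted p = 0.217) and for Sftpb 1.43 (SE 0.60, adjusted p = 0.0826).

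Expression of the alveolar genes depends on transcription factors that include Nkx2-1, which is needed for surfactant genes, the Foxa proteins, Gata6, Cebpa and Etv5. A list of 12 such regulators was read alongside, of which Elf3 was listed at 0 in all samples. Nkx2-1 had 12946, 14051 and 16406 normalized counts in Lung. It had 34869, 33031 and 29464 in 57SCLC_cell and 24223, 28338 and 26185 in 57SCLC_allo, above every lung. In 46LCNEC_cell it had 2883, 2421 and 2244, and in 46LCNEC_allo 5.30, 165 and 761. Against Lung, limma called it higher in 57SCLC_cell (log2 fold change 1.17, SE 0.12, adjusted p = 4.78e-05) and lower in 46LCNEC_cell (-2.52, SE 0.12) and 46LCNEC_allo (-7.28, SE 1.60, adjusted p = 0.00738), while the 0.86 (SE 0.12) of 57SCLC_allo fell short of 2-fold. The call in 46LCNEC_allo was lost without any 1 lung or without tumor 319, with a pseudocount of 0.1, with edgeR and in the test against 2-fold. That in 57SCLC_cell was lost with all 15 samples in 1 model and in the test against 2-fold, and 57SCLC_allo was called with library size scaling. In 57SCLC_allo, where Nkx2-1 was at 181% of the Lung mean, Sftpb was at 0.0384% and Sftpc at 0.0172%.

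**Figure D4:**
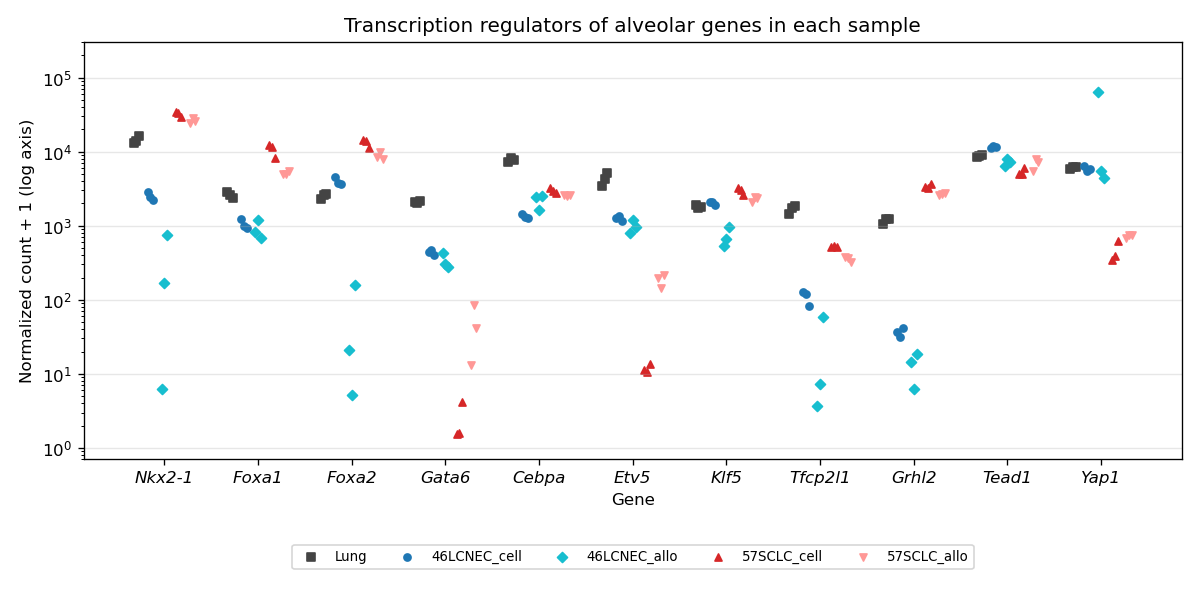
Normalized count + 1 on a log axis for 11 regulators of alveolar genes, with 1 point per sample and 3 samples per group. Nkx2-1, Foxa1, Foxa2 and Grhl2 lie above Lung in the 57SCLC samples, while Gata6 and Etv5 lie far below it in 57SCLC_cell, and Yap1 is at 64200 in tumor 312.

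In 57SCLC_cell, 5 of the 11 regulators tested were called lower and 4 higher, against 32.7% and 21.1% of all genes tested. Foxa1 was at 408%, Foxa2 at 517% and Grhl2, an epithelial factor, at 293% of the Lung mean. Gata6 had 0.545, 0.603 and 3.13 normalized counts against 2010 to 2168 in Lung, and Etv5 was at 0.251% of the Lung mean. Cebpa was at 38.7% and Tfcp2l1 at 30.9%. Yap1, a Hippo pathway effector, was at 7.41%, and Klf5 (163%) and Tead1 (61.1%) were not called. In 57SCLC_allo 5 were called lower and 2, Foxa2 and Grhl2, higher, against 26.9% and 18.9% of all genes tested, with Gata6 at 2.20% and Etv5 at 4.28%.

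In the 46LCNEC groups no regulator was called higher, where 20.6% (cells) and 13.4% (allografts) of all genes tested were. In 46LCNEC_cell 7 of 11 were called lower, against 35.0% of all genes tested, and Foxa2 was at 158%, Tead1 at 130%, Klf5 at 112% and Yap1 at 97.1% of the Lung mean without being called. In 46LCNEC_allo 9 of 11 were called lower, against 22.1%. Among these, the call of Foxa2 (log2 fold change -6.61, adjusted p = 0.00251) was lost without any 1 lung or without tumor 312, and that of Klf5 (-1.39, adjusted p = 0.00162) without CT3 and in the test against 2-fold. Foxa2 fell between cells and tumors, with 4522, 3794 and 3682 normalized counts in 46LCNEC_cell and 19.9, 4.21 and 159 in 46LCNEC_allo (log2 fold change -7.26, SE 1.08, adjusted p = 0.00135). Grhl2 was at 3.05% and 1.03% of the Lung mean in 46LCNEC cells and allografts. The spread of Yap1 was wide in 46LCNEC_allo, where it was not called: tumor 312 had 64200 normalized counts and tumors 319 and 321 had 5426 and 4464.

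Over all 15 samples, the genes whose log2 values followed each member most closely among 19616 genes were found by Pearson's r, which mostly reflects the gap between Lung and the other groups and is given as a description. For Sftpb these were Lpcat1 (r = 0.9935), Sftpc (0.9933) and Mal (0.9929), and for Sftpa1 Gm28856, Chia1 and Pifo (0.9956 to 0.9965). Abca3, the member least far below Lung, was closest to Pde4c (0.9788), Elmo3 (0.9787) and Rrm2b (0.9784). Hopx was closest to Etfbkmt (0.9945), Gsap (0.9903) and Fam43a (0.9887), and its own r with Abca3 was 0.4872.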

How the data were processed

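RNA of 15 mouse samples in 5 groups of 3 was poly-A selected and sequenced as read pairs of 150 bases. Alignment by the authors was to GRCm39 with Rbowtie2, which does not split reads over introns, and featureCounts per GENCODE gene and DESeq2 normalization followed. The deposited signal values are these normalized counts for 55359 genes, 25369 of them at 0 throughout. Strand setting and treatment of multi-mapping reads are not given in the sources used here. Whether a row at 0 throughout, such as that of Cav1, Elf3 or Hopxos, reflects expression or counting was not tested. The values were whole multiples of what 1 read is worth (tolerance 0.01 of a read), so reads and depth were recovered. Intervals and floors (3 reads, 95%) cover counting error only.

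Groups came from the sample titles. limma 3.58.1 (R 4.3.3, mean-variance trend) was fitted on log2(normalized count + 1), over genes with at least 10 in at least 3 of the 6 samples compared (12 for the difference between the lines), so fold changes of low genes are understated. A call needed an adjusted p (Benjamini-Hochberg, all genes tested) of 0.01 or less and a 2-fold change. Alternatives were pseudocounts of 0.1 and 5, no filter, library size and upper-quartile scaling, edgeR 4.0.16 and DESeq2 1.42.0 on the recovered reads, an adjusted p of 0.05, a test against 2-fold, all 15 samples in 1 model, each sample left out, and the culture letters as a block. The fits were tested on simulated counts. Coordinates and exon lengths are from GENCODE M39, which held 54749 of the gene identifiers; promoters are from RefSeq. Named were all 10 members, the regulators, the 4 genes of highest mean in each other list, and the 3 genes most correlated with each member. The members and lists were chosen with earlier results of these data known. Some targeted and marker genes are not reported here, and the list sums leave them out.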

Additional observations from a re-analysis of the deposited data

Results flagged for a closer look

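No member was among the genes whose change from cells to allografts differed between the lines, but 5 of the 11 regulators tested were, against 17.5% of all genes, by the interaction term of limma over 12 samples. The difference, as the log2 change in 57SCLC minus that in 46LCNEC, was 6.69 for Foxa2 (adjusted p = 0.00115), which was at -7.26 in 46LCNEC and -0.57 in 57SCLC. It was 4.46 for Gata6 (SE 0.82, adjusted p = 0.00137) and 4.34 for Etv5 (SE 0.28, adjusted p = 3.66e-07). Gata6 was at -0.41 in 46LCNEC and 4.05 in 57SCLC, and Etv5 at -0.38 and 3.96. In the 57SCLC cultures both were low, with 0.545 to 3.13 normalized counts of Gata6 and 9.65 to 12.5 of Etv5. The differences of Klf5 (1.2, SE 0.25, adjusted p = 0.00312) and Tead1 (1.05, SE 0.20, adjusted p = 0.00165) were not called in the test against 2-fold, and that of Tead1 also not without tumor 312, flask A or tumor 316, where it was below 2-fold, nor that of Klf5 without dish B. Leukocyte and endothelial markers were higher in the allografts of both lines, and their part in these values was not tested.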

How the results depend on the processing

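Against Lung, 632 of 640 changes of members under an alternative kept their direction and call, and the other 8 were those of Napsa in 46LCNEC_allo, where the adjusted p lay between 0.0201 and 0.0326 with a pseudocount of 0.1, edgeR, the test against 2-fold, and 5 of the 6 left-out samples. In the other comparisons 452 of 490 were kept, 10 lost and 10 gained a call, and 18 changed sign; all 10 lost were those of Sftpc between the cell lines. For 57SCLC_allo against 46LCNEC_allo, the 1 of 5 members called became 2 with DESeq2, 2 at an adjusted p of 0.05 (33.6% and 36.5% of all genes called) and 1 to 2 with 1 sample left out (2 without tumor 321). With all 15 samples in 1 model it became 3, but of 10 tested, since the Lung counts let every member pass the filter. For 46LCNEC_allo against its cells, 1 of 5 became 3 at an adjusted p of 0.05 (28.4% of all genes called), adding Sftpb and Lamp3. With all 15 samples it became 4, again of 10 tested, so this is not a like count. For the difference between the lines, 0 became 1 with a pseudocount of 5 (Hopx, -2.28, adjusted p = 0.00915). In 57SCLC_cell Hopx was at 0.521 to 2.18 normalized counts, below that pseudocount, so its change in this line depends on the pseudocount chosen. The letters of the cultures did not pair them (correlations of same-lettered deviations 0.0916, -0.0837 and -0.00619), and with the letters as a replicate block 3 of 6 members were called between the lines, as without it.

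Values that changed sign were small or varied widely, and none was called. Between the cell lines Sftpb was at 0.015 with library size only, and Ager between -0.066 and 0.16 with 1 sample left out. With 1 sample left out, Abca3 lay between -0.15 and 0.76 in 46LCNEC allografts against cells, and in 57SCLC Sftpb between -0.17 and 0.17 and Lamp3 between -0.64 and 0.018. The difference between the lines for Sftpc was 0.041 with a pseudocount of 0.1, 0.17 with edgeR, 0.12 with DESeq2, and -0.52 to 0.30 with 1 sample left out. Yap1 in 46LCNEC_cell against Lung was 0.16 with upper-quartile scaling, 0.089 with edgeR, 0.051 with DESeq2 and -0.10 to 0.0040 with 1 sample left out. With 1 sample left out, Yap1 ranged from -0.30 to 1.63 in 46LCNEC_allo against Lung and from -0.94 to 0.98 in the difference between the lines. Of 942 regulator changes, 895 were kept, 28 lost and 13 gained a call, and 6 changed sign.

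Scaling by library size moved the median of all genes to 0.24 between the cell lines and 0.28 between the allografts, from near 0. Members with at least 10 normalized counts in fewer than 3 of the samples compared were not tested between tumors. Each tumor type is 1 line.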
